A study of Mus musculus with 6 samples.

Results

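The immediate early genes were followed through 13 probe sets that the platform annotation assigns to 10 genes, Fos, Fosb, Fosl1, Jun, Junb, Egr1, Egr2, Atf3, Ier2 and Dusp1, out of 45037 probe sets and 18193 named genes on the array. All 13 annotated probe sets were kept, with no filter on level. The material was back skin of mouse embryos at E15.5 on a mixed C57BL6/129 background, profiled on Affymetrix MOE430 2.0 arrays. There were 3 arrays from Fzd6 +/- embryos, called control, and 3 from Fzd6 -/- embryos, called knockout. The controls thus also carry a mutant copy of Fzd6, a Frizzled receptor of planar cell polarity, and no wild-type skin was among the 6 arrays. The skins were dissected and kept in Trizol, per the labels. Time between death and lysis, litter and the number of embryos per sample are not given in the sources used here. Per-array differences of immediate early genes were of interest as a possible sign of tissue handling, and the part of handling in them was not tested.

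Immediate early genes are transcribed within minutes of a stimulus from factors already present in the cell, without new protein synthesis. Growth factors, stress, wounding and tissue dissociation induce them through MAP kinases that act on the serum response factor SRF with its ETS partners and on CREB. Several encode transcription factors. Fos, Fosb and Fosl1 pair with Jun or Junb to form AP-1, which in epidermis acts in proliferation, wound response and keratinocyte differentiation, and Egr1 and Egr2 are zinc finger factors. Others, such as the phosphatase Dusp1, switch the MAP kinases off again.

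Start-site sequences of RefSeq (GRCm38.p6, 250 bases before to 50 bases after the start) were matched for 7 of the 10 genes by symbol. They are shown for the 3 genes whose levels varied most between arrays, Fos, Jun and Atf3, and for Dusp1, which was lowest in 1 of the arrays that set those genes apart. Fos lies on the plus strand at chr12:85473640-85473939, Jun on the minus strand at chr4:95052173-95052472, Atf3 on the minus strand at chr1:191183284-191183583 and Dusp1 on the minus strand at chr17:26508423-26508722. Capitals mark letters that matched a searched motif on either strand.
Fos: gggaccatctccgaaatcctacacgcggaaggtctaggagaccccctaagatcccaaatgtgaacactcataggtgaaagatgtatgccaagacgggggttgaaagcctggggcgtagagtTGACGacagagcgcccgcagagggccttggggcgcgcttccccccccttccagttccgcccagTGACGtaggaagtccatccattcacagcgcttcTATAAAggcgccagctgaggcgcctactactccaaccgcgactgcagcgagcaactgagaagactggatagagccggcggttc
Jun: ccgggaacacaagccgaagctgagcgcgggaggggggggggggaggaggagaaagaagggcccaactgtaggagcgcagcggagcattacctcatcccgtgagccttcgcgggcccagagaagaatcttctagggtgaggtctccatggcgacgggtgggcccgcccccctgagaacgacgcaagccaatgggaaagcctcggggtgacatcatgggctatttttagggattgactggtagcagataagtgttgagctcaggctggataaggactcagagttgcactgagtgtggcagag
Atf3: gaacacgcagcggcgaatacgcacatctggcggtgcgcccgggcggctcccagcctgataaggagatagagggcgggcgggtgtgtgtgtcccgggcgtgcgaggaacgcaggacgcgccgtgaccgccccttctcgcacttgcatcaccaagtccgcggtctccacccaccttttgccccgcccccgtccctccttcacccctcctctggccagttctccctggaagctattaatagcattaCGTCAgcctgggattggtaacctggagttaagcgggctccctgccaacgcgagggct
Dusp1: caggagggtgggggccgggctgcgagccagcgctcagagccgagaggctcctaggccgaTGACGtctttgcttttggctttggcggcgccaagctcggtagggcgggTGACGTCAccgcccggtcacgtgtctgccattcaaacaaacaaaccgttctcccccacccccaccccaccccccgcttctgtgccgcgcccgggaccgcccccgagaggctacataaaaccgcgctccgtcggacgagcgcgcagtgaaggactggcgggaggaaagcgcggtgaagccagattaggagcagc
The motifs searched were TGACG, the core of the CREB and ATF element, its full palindrome TGACGTCA, the AP-1 element TGANTCA, the Egr element GCGNGGGCG, the TATA box TATAAA and the CArG box that SRF binds. TGACG is contained in TGACGTCA. In Fos, TGACG began at positions -129 and -66 from the start and TATAAA at -33. In Atf3 the TGACG core began at -7 on the opposite strand. Dusp1 held TGACG at -191 and the full palindrome at -143. The Jun window held none of the 6 motifs. The 7 genes had 11 windows, 5 of them of Egr2, and a gene was counted if any of its windows held the motif. TGACG was found in 6 of the 7 genes, against 23.0% of the 27025 genes in the table, and in 8 of 11 windows, against 20.8% of all 32851 windows of the same length. The CArG box was found in 1 gene, Egr2, in 4 of its 5 windows, against 1.81% of all genes. TATAAA was found in 2 genes, Fos and Junb, against 15.7%. These matches describe letters only, and elements farther from the start, among them those upstream of this window, were not searched.

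Among the 10 genes, the Fos family gave 1 bright member and a pair of dim ones. Fos, the founding member of its family, read 10.52, 9.99 and 10.04 in controls 1 to 3 and 10.94, 10.23 and 10.09 in knockouts 1 to 3 (log2 RMA values). Its highest array was knockout 1 and the next was control 1, and the groups overlapped. The knockout minus control difference was 0.24 (95% interval -0.32 to 0.80, limma adjusted p = 0.938), from 10.18 ± 0.29 to 10.42 ± 0.46 (SD, n = 3). The interval narrowed to 0.021 to 0.45 with the replicate number as a block, a pairing taken from these same data. The call did not change (limma adjusted p = 0.387). Fosl1, which encodes the AP-1 subunit Fra-1, was read by a pair of probe sets that did not behave alike. In 1417487_at it read 4.81, 4.95 and 4.75 in the controls and 5.06, 5.01 and 5.11 in the knockouts. All knockout arrays of that probe set lay above all controls, by 0.22 on average (0.023 to 0.42, limma unadjusted p = 0.0336, adjusted p = 0.909; exact permutation p = 0.1, the smallest that 3 against 3 allows). In 1417488_at the controls read 4.44, 4.31 and 4.28 and the knockouts 4.55, 4.03 and 4.36, with overlap and a difference of -0.029 (-0.35 to 0.29). Fosb, a close relative of Fos, read 3.60, 3.39 and 3.28 in controls and 3.52, 3.63 and 3.47 in knockouts, with overlap and a difference of 0.12 (-0.13 to 0.36). Fosb, both Fosl1 and both Egr2 probe sets averaged below 6.02, the median of all probe sets. Values that low may be near background, and detection calls were not available here.

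Jun showed the widest spread of the 13 probe sets. Jun, which can form AP-1 with itself or with Fos proteins, read 7.73, 8.61 and 8.80 in the controls and 7.54, 8.87 and 8.71 in the knockouts in its brighter probe set, 1417409_at. The lowest 2 arrays were control 1 and knockout 1, and the range over 6 arrays was 1.33, or 2.52-fold. The second Jun probe set, 1448694_at, had the same 2 low arrays, at 7.77, 8.38 and 8.33 in controls and 7.47, 8.40 and 8.38 in knockouts. The genotype differences were -0.010 (-0.94 to 0.92) and -0.075 (-0.72 to 0.57), with limma adjusted p = 0.999 and 0.99. With the replicate number as a block the intervals were narrower, -0.25 to 0.23 and -0.29 to 0.14, and neither probe set passed (limma adjusted p = 0.979 and 0.776). Junb, a Jun relative with weaker activation of many AP-1 targets, read 7.05, 7.27 and 7.27 in controls and 7.39, 7.40 and 7.13 in knockouts. Its groups overlapped, with a difference of 0.11 (-0.15 to 0.36).

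**Figure D1:**
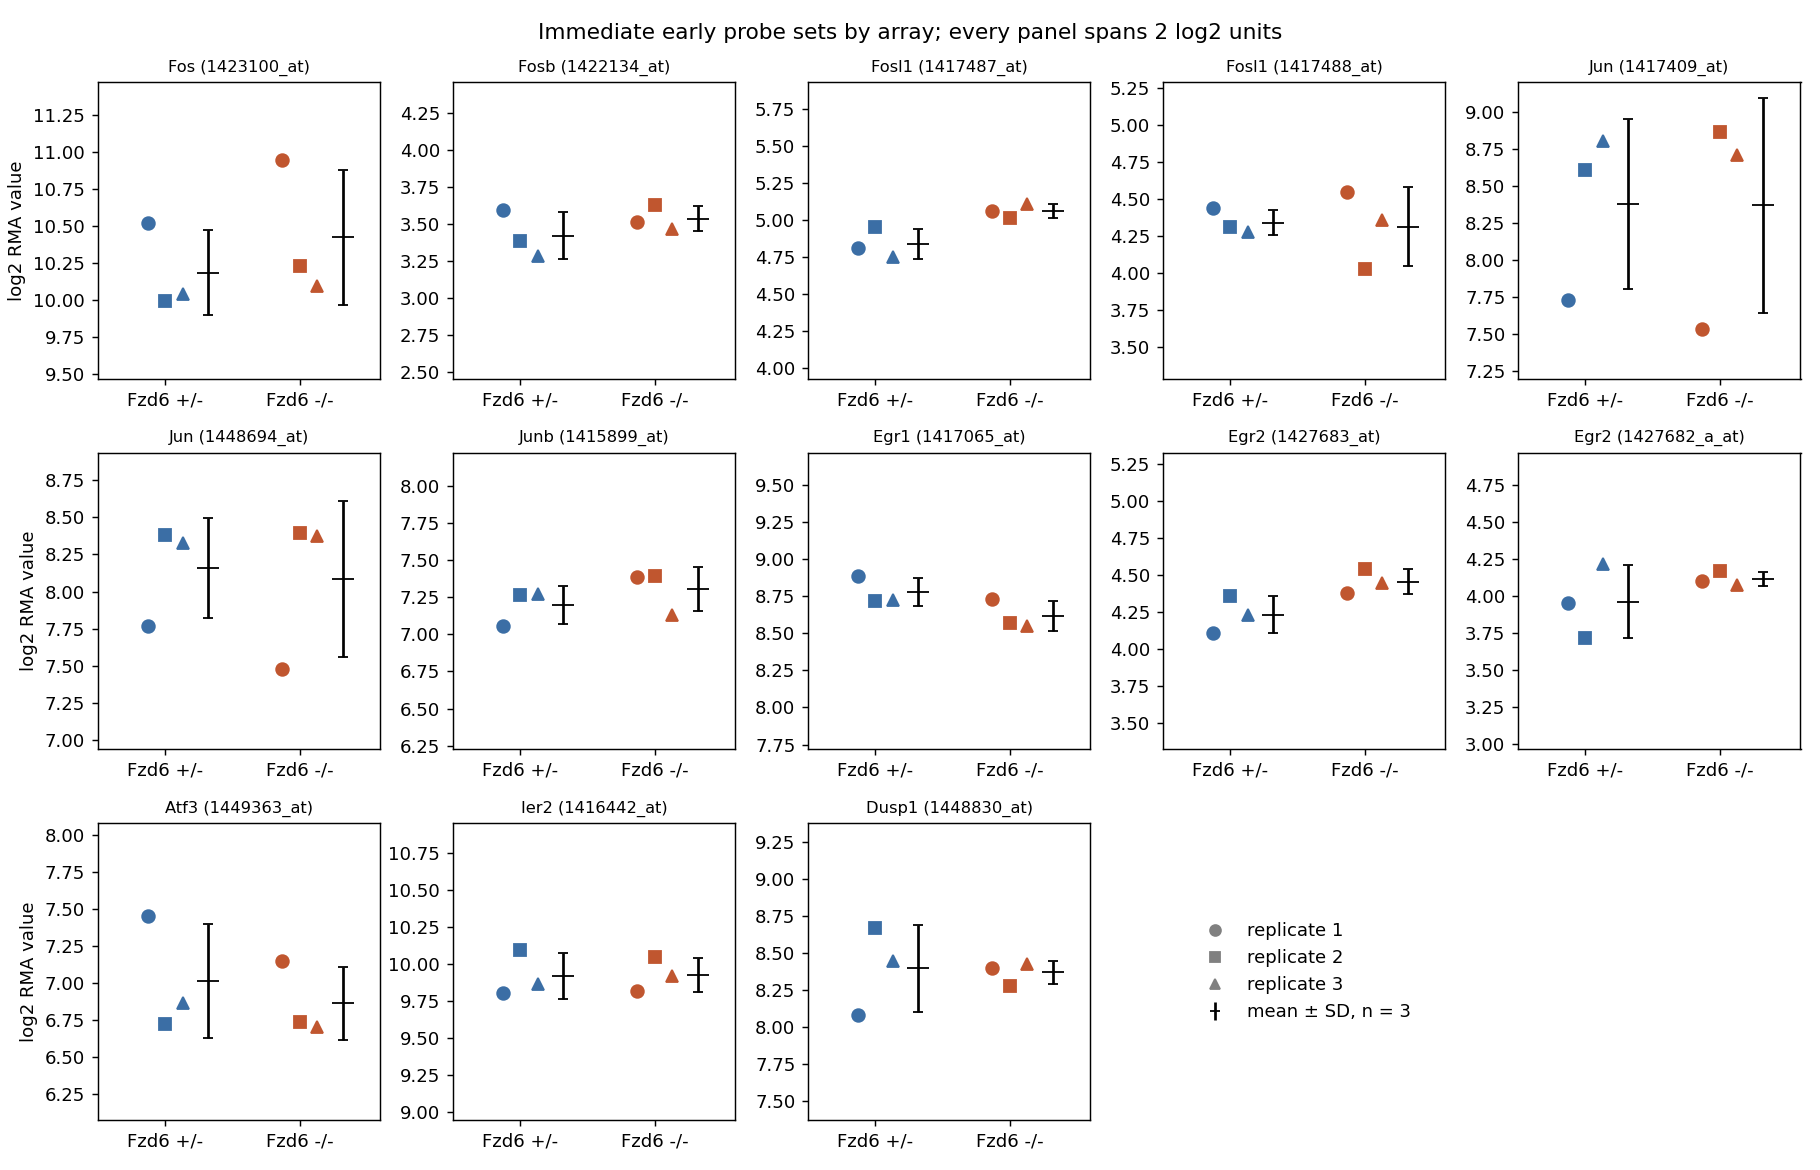
Level of each of the 13 probe sets by array (log2 RMA value, vertical axis) in control and knockout skin; symbols mark the replicate number and bars give the mean ± SD of 3 arrays. Jun is low in control 1 and knockout 1, where Fos and Atf3 are high.

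Of the Egr factors, Egr1 read 8.89, 8.72 and 8.72 in controls and 8.73, 8.57 and 8.55 in knockouts. Control 1 was highest, and knockout 1 lay just above controls 2 and 3, so the groups overlapped. The difference was -0.16 (-0.37 to 0.052, limma adjusted p = 0.911). Within replicate numbers 1 to 3 it was -0.156, -0.151 and -0.175, the most even set of differences among the 13 probe sets, and with the replicate number as a block the interval was -0.33 to 0.0080 (limma adjusted p = 0.432). Egr2, also called Krox20 and known in skin for a role in hair follicles, read 4.11, 4.36 and 4.23 in controls and 4.38, 4.54 and 4.44 in knockouts in 1427683_at. All knockouts lay above all controls there, by 0.22 (0.0022 to 0.45, limma unadjusted p = 0.0483, adjusted p = 0.909; exact permutation p = 0.1). In 1427682_a_at, dimmer at a mean of 4.04, the groups overlapped and the difference was 0.15 (-0.14 to 0.45).

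Atf3, a stress-induced factor of the ATF family that can pair with Jun, read 7.45, 6.72 and 6.86 in controls and 7.15, 6.74 and 6.70 in knockouts. Control 1 was highest and knockout 1 next, the same 2 arrays as for Fos in the other order. The genotype difference was -0.15 (-0.63 to 0.33, limma adjusted p = 0.956). Ier2, a small nuclear protein of the immediate early response, read 9.80, 10.10 and 9.86 in controls and 9.81, 10.05 and 9.91 in knockouts, a range of 0.295, the smallest of the 13 probe sets. Its difference was 0.0052 (-0.25 to 0.26). Dusp1, the phosphatase that inactivates MAP kinases, read 8.08, 8.66 and 8.44 in controls and 8.40, 8.28 and 8.43 in knockouts. Control 1 was the lowest and control 2 the highest, so the knockouts lay inside the range of the controls, with a difference of -0.029 (-0.37 to 0.31).

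Between genotypes no immediate early gene passed the test. Of the 13 probe sets, 0 passed limma's adjusted p of 0.05 over all 45037 probe sets, where 0.0% of all passed (smallest adjusted p of all 0.295). Before adjustment, 2 of 13 had a p under 0.05, Fosl1 1417487_at and Egr2 1427683_at, both higher in the knockout, against 5.21% of all probe sets. The groups did not overlap in the same 2 of 13, against 11.6% of all. One probe set per gene, the brightest, was higher in the knockout in 6 of 10 genes, against 52.4% of all genes. The median difference was 0.056 for the 10 genes and 0.0070 for all genes. The sign of the difference was the same in all 3 replicate numbers for 4 of 13 probe sets, Fos, Fosl1 1417487_at, Egr1 and Egr2 1427683_at, against 35.7% of all. Blocking on the replicate number let 3 probe sets of the array pass limma's adjusted p of 0.05, or 0.00666%, and no immediate early probe set was among them (smallest adjusted p of the 13, 0.347).

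**Figure D2:**
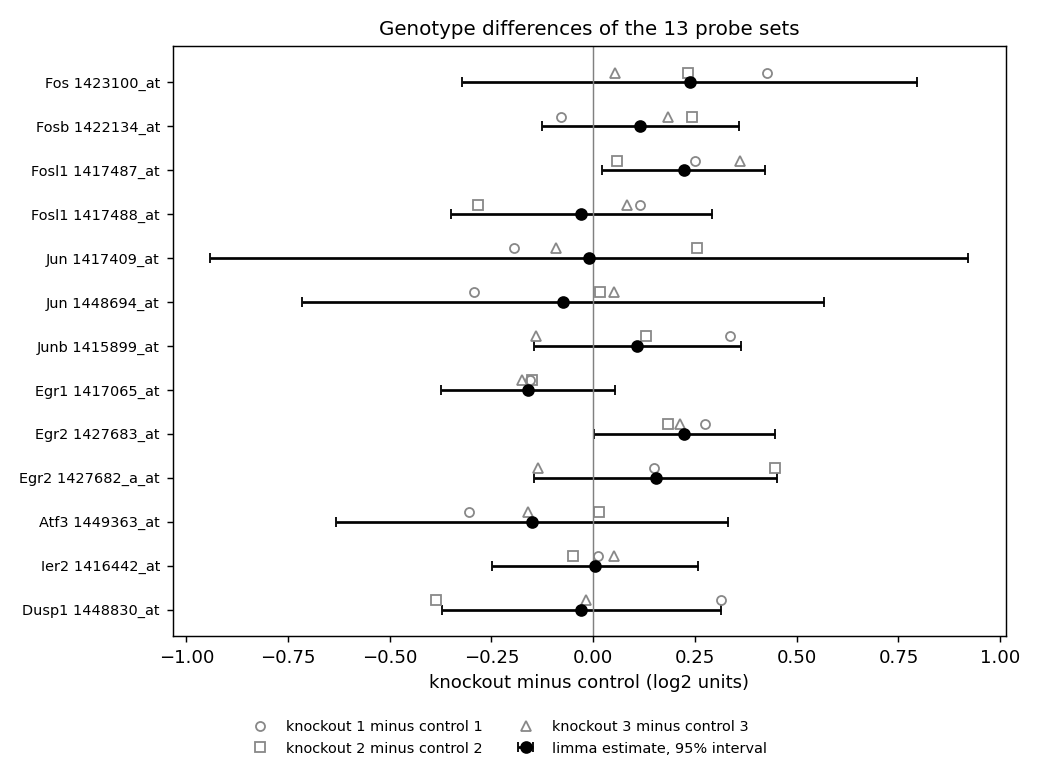
Knockout minus control difference of each probe set on the log2 scale (horizontal axis), with the limma 95% interval in black and the difference within each replicate number in grey. The intervals of Jun, Fos and Atf3 are the widest, and 2 intervals, of Fosl1 and Egr2, do not reach 0.

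The spread lay between arrays of the same genotype. The within-group SD was 0.654 and 0.443 for the Jun probe sets, 0.381 for Fos and 0.323 for Atf3, above that of 99.5%, 97.6%, 95.9% and 93.2% of all probe sets. For Egr1 it was 0.097, above that of 30.4% of all, and for Ier2 0.138, above 55.3%. Both arrays numbered 1 lay below the other 4 arrays in 3 of 13 probe sets, the Jun pair and Ier2, against 16.5% of all probe sets. They lay above the other 4 in 4 of 13, Fos, Atf3, Egr1 and Fosl1 1417488_at, against 15.9%. Counted by gene in the brightest probe sets, they lay below the other 4 in 2 of 10 genes and above them in 3 of 10. Over all genes the shares were 18.8% and 18.0%, and no result about the immediate early genes is read from such small counts. The mean deviation of the 10 genes ran only from -0.061 in control 1 to 0.067 in knockout 2.

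Whether levels varied with the replicate number was tested in limma's additive fit of genotype and number, by the F test on the number. This test was added after the values had been seen. The labels call the numbers biological replicates, and whether a number links a control to a knockout is unknown. The F test called 4 of 13 immediate early probe sets at an adjusted p under 0.05, against 4.92% of all probe sets. All 4 were among the 8 above the median level, where 8.74% of all probe sets were called. Counted by gene in the brightest probe sets, so that Jun counts once, it called 3 of 10, against 6.52% of all genes. Both Jun probe sets (limma adjusted p = 0.0161 and 0.0253), Fos (0.0336) and Atf3 (0.0441) passed, Jun being lowest and Fos and Atf3 highest in the arrays numbered 1. Ier2 did not pass (limma adjusted p = 0.22), nor did Egr1 (0.387), Dusp1 (0.583) or Junb (0.749). The calls depended on single arrays. Without knockout 1, 0.0266% of all probe sets and none of the 13 passed (Jun 1417409_at at adjusted p = 0.0939 in limma). Without control 2 or knockout 2 only that Jun probe set did (limma adjusted p = 0.0398 and 0.0435). The shares over all probe sets were then 1.21% and 0.813%. Without control 1 both Jun probe sets and Fos passed, but Atf3 did not (limma adjusted p = 0.14), against 5.21% of all probe sets. With the mean of Y-linked genes as a covariate none of the 13 passed (Jun 1417409_at at limma adjusted p = 0.0512), against 0.0844% of all.

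Array-wide facts that touch these values were as follows. Skin markers were bright in all 6 arrays, with the basal keratin Krt14 between 12.2 and 13.4 and the collagen Col1a2 between 13.4 and 14.4. Fzd6 in its brightest probe set read 9.50, 9.51 and 9.11 in controls and 9.07, 9.01 and 8.71 in knockouts (difference -0.44, limma adjusted p = 0.909). In a dimmer Fzd6 probe set, 1448662_at, the controls read 6.22, 6.09 and 6.09 and the knockouts 5.49, 5.53 and 5.36, without overlap (difference -0.67, -0.87 to -0.47, limma unadjusted p = 7.6e-05, adjusted p = 0.864). The remaining one, 1458904_at, differed by -0.0097. No source used here says whether these probes lie in the deleted part, so residual signal does not go against the labels. Y-linked genes stood low in control 2 and knockout 3 (list mean -3.32 and -3.30 from the 6-array mean) and high in the other 4. Both arrays numbered 1 were thus high, while numbers 2 and 3 each joined a low array to a high one. The 3′ minus 5′ difference of the array's own probe sets ranged from -0.13 to 0.017 for Gapdh and from 0.33 to 0.45 for beta-actin. Control 1 and knockout 1 stood at -0.126 and -0.119 for Gapdh and at 0.347 and 0.366 for beta-actin. The part of RNA quality in the values was not tested.

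Endothelial, pericyte and dermal fibroblast markers were low in the same 2 arrays as Jun. Not all cell type lists were: 0 of 10 suprabasal and 1 of 8 skeletal muscle genes were lowest in both arrays numbered 1. Over all genes that share was 18.8%, the background for each such count below. Endothelial and pericyte genes averaged -0.40, 0.33 and 0.27 from their 6-array mean in controls 1 to 3 and -0.83, 0.29 and 0.34 in knockouts 1 to 3, with 8 of 9 genes lowest in the arrays numbered 1. Jun in 1417409_at deviated by -0.65, 0.23 and 0.43 in controls and by -0.84, 0.49 and 0.33 in knockouts, so the same 2 arrays were low. Dermal fibroblast genes averaged -0.26, 0.21 and 0.14 in controls and -0.54, 0.28 and 0.17 in knockouts, with 5 of 8 lowest in the arrays numbered 1. The F test on the replicate number called 7 of 9 endothelial and pericyte genes and 3 of 8 fibroblast genes, against 6.52% of all genes. All genes of both lists lay above the median level, where 8.74% of probe sets were called. In bulk skin, fewer cells of a type and less RNA per cell cannot be told apart. The part of tissue makeup in the Jun values was not tested.

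Fos was set beside the epidermal lists. It deviated by 0.21, -0.31 and -0.26 in controls and by 0.64, -0.08 and -0.21 in knockouts. The periderm list, genes of the outer layer of embryonic skin, stood at -0.39, -0.47 and -0.26 in controls and at 1.01, 0.14 and -0.034 in knockouts. Its summit was in knockout 1 as for Fos, but it was low in control 1, where Fos was high. The suprabasal list likewise ranged from -0.41 to -0.12 in controls and from 0.093 to 0.60 in knockouts. The basal epidermis list stood at 0.027, 0.15 and -0.37 in controls and at 0.20, 0.20 and -0.20 in knockouts, lowest in the arrays numbered 3. The F test on the replicate number called 5 of its 7 genes, against 6.52% of all genes. All 7 lay above the median level, where 8.74% of probe sets were called. In both arrays numbered 1, 1 of the 7 was lowest and 1 highest, against 18.8% and 18.0% of all genes. Melanocyte genes stood at 0.0029, -0.25 and -0.16 in controls and at 0.50, 0.0099 and -0.11 in knockouts, highest in knockout 1 like Fos. Macrophage genes (-0.20 to 0.23 in controls, -0.16 to 0.063 in knockouts), skeletal muscle (-0.28 to 0.41 and -0.53 to 0.32), mast cell (-0.48 to 0.061 and 0.19 to 0.37), erythroid (0.0061 to 0.14 and -0.37 to 0.16) and nerve genes (0.051 to 0.12 and -0.14 to -0.050) completed the lists. The part of these cells in the Fos and Atf3 values was not tested.

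**Figure D3:**
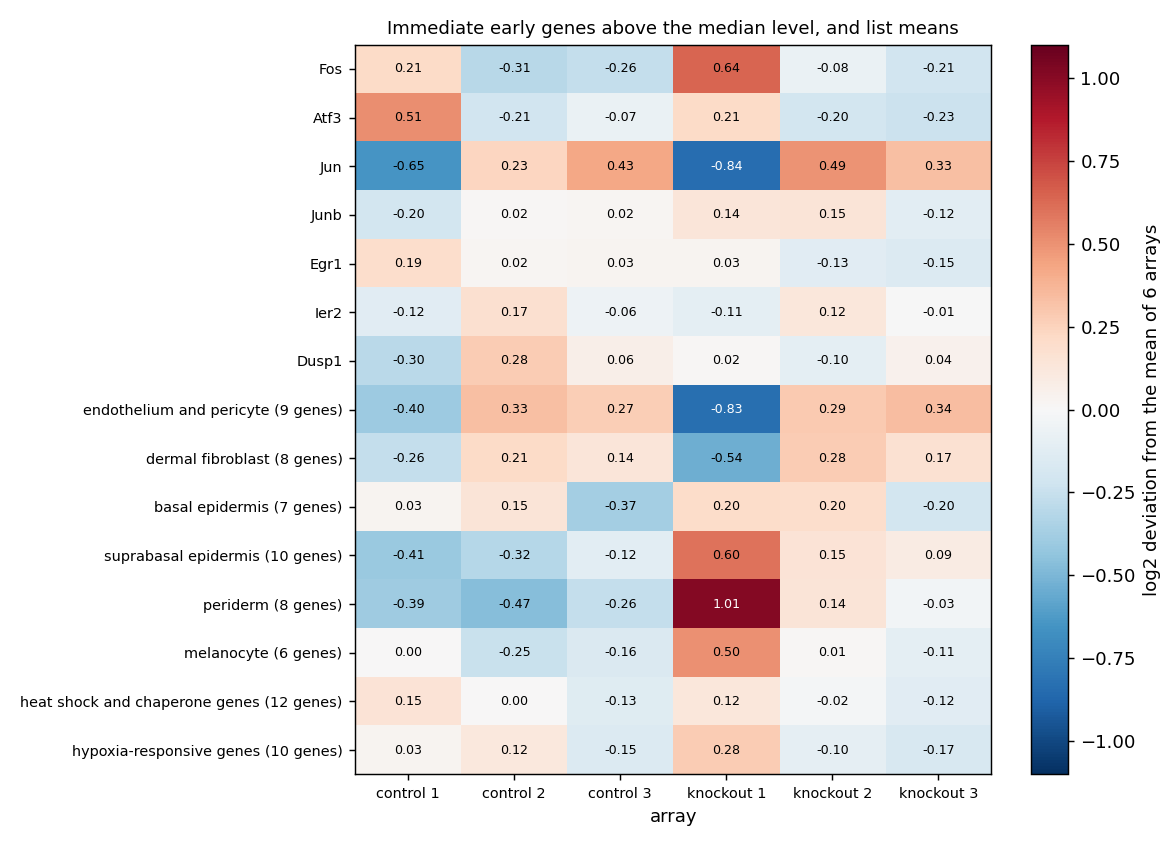
Deviation from the mean of 6 arrays (log2, colour and numbers) for the 7 immediate early genes above the median level, in their brightest probe sets, and for the means of 8 gene lists. Jun and the endothelial and fibroblast lists are lowest in control 1 and knockout 1, and Fos is highest there.

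Other genes that respond to tissue stress were read in the same arrays. The chaperone list averaged 0.15, 0.0021 and -0.13 in controls 1 to 3 and 0.12, -0.020 and -0.12 in knockouts 1 to 3, which is nearly the same in both genotypes. Hspa1a, the inducible heat shock protein, read 9.52, 9.12 and 8.92 in controls and 10.10, 9.49 and 9.03 in knockouts. The F test on the replicate number called it (limma adjusted p = 0.0327), together with Hspa1b (0.0426) and the co-chaperone Bag3 (0.0430), the latter 2 genes named after their values were seen. These were 3 of 12 chaperone genes, against 6.52% of all genes. All 12 lay above the median level, where 8.74% of probe sets were called. Bag3 was lowest in the arrays numbered 1, at 8.83 and 8.82, against 9.22 to 9.34 elsewhere, opposite to Hspa1a. Between genotypes, in the brightest probe set of each gene, the chaperones with the smallest p were Hspd1 (-0.26), Hspb1 (0.17) and Hspa1a (0.35, or 0.072 without knockout 1), and 0 of 12 passed limma's adjusted p. A dimmer probe set of the co-chaperone Dnaja1, 1460179_at, named after its values were seen, differed by -0.38 (limma unadjusted p = 0.0384, adjusted p = 0.909), and its brightest by -0.12. Hypoxia-responsive genes averaged 0.027, 0.12 and -0.15 in controls and 0.28, -0.10 and -0.17 in knockouts. Vegfa (-0.33), Ankrd37 (-0.16) and Egln3 (0.43) had the smallest p of that list, again in brightest probe sets, and none passed. Egln3 read 10.5 in knockout 1 and 9.19 to 9.35 in the other 5 arrays, and its difference was 0.030 without knockout 1. Whether stress before lysis differed between the samples was not tested.

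The upstream machinery was read by 16 of 21 listed genes, of which 5 had higher and 11 lower values in the knockout and 0 passed. The kinases Map2k1 (-0.22) and Mapk9 (-0.18) and the factor Atf2 (-0.20) had the smallest p. Its mean deviation was -0.11, 0.12 and 0.058 in controls and -0.15, 0.052 and 0.023 in knockouts, lowest in the arrays numbered 1. The F test on the replicate number called 2 of its 16 genes, against 6.52% of all genes. All 16 lay above the median level, where 8.74% of probe sets were called. Of its genes, Srf (limma adjusted p = 0.0306) and the ETS partner Elk3 (0.0158), named after their values were seen, varied with the replicate number.

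A further 40 immediate early genes were examined in the brightest probe set of each, and 0 passed limma's adjusted p between genotypes, with 23 higher and 17 lower values and a median difference of 0.025. Before adjustment, 2 of 40 had a p under 0.05, against 5.21% of all probe sets. Klf4, a factor of epidermal differentiation, read 11.1, 11.5 and 11.4 in controls and 11.8, 11.8 and 11.6 in knockouts, a difference of 0.36 (0.067 to 0.66, limma adjusted p = 0.909), and its other probe set gave 0.33. Klf4 lay higher in every knockout than in every control, as did the suprabasal, periderm and mast cell lists by their means. The nerve list lay lower in every knockout. Of the 40 genes, 3 had groups without overlap, against 11.6% of all probe sets. The phosphatase Dusp6, a feedback inhibitor of ERK signalling, read 9.94, 9.80 and 9.61 in controls and 9.66, 9.32 and 9.21 in knockouts, a difference of -0.38 (-0.71 to -0.055, limma adjusted p = 0.909). Gem, a small GTP-binding protein, had the next smallest p, at -0.20 (-0.45 to 0.049). Egr3, a relative of Egr1, differed by -0.15 in its brighter probe set and by 0.73 (0.21 to 1.25, limma adjusted p = 0.909) in a dimmer one, chosen after its values were seen, where the controls read 5.64, 5.99 and 6.34 and the knockouts 7.08, 6.73 and 6.35.

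The 40 genes were also compared between the arrays numbered 1 and the other 4. Both arrays numbered 1 lay below the other 4 in 9 genes and above them in 5. Over all genes the shares were 18.8% and 18.0%, so these counts were near the array-wide split. The F test on the replicate number called 6 of 40, against 6.52% of all genes. Of the 40, 36 lay above the median level, where 8.74% of probe sets were called. Each of the 6 called genes was lowest in the arrays numbered 1. They were the shear-responsive factor Klf2 (limma adjusted p = 0.0179), the matricellular genes Ccn1 (0.0161) and Ccn2 (0.0260), the GTPase gene Rhob (0.0272), the nuclear receptor Nr4a1 (0.0324) and the antiproliferative gene Btg2 (0.0471). Klf2, which is abundant in endothelium, read 6.77, 7.59 and 7.52 in controls and 6.46, 7.68 and 7.51 in knockouts. Ccn1 in its brightest probe set read 7.11, 8.04 and 7.90 in controls and 7.17, 8.04 and 8.02 in knockouts. Fosl2, the Fos relative Fra-2, was highest in knockout 1, at 10.4, against 9.58 to 9.88 in the other 5 arrays. Nfkbia, the inhibitor of NF-kappaB, was called in 1 of its dimmer probe sets, 1448306_at, chosen after its values were seen, with 10.7, 10.2 and 9.91 in controls and 10.8, 10.4 and 10.1 in knockouts (limma adjusted p = 0.0224).

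**Figure D4:**
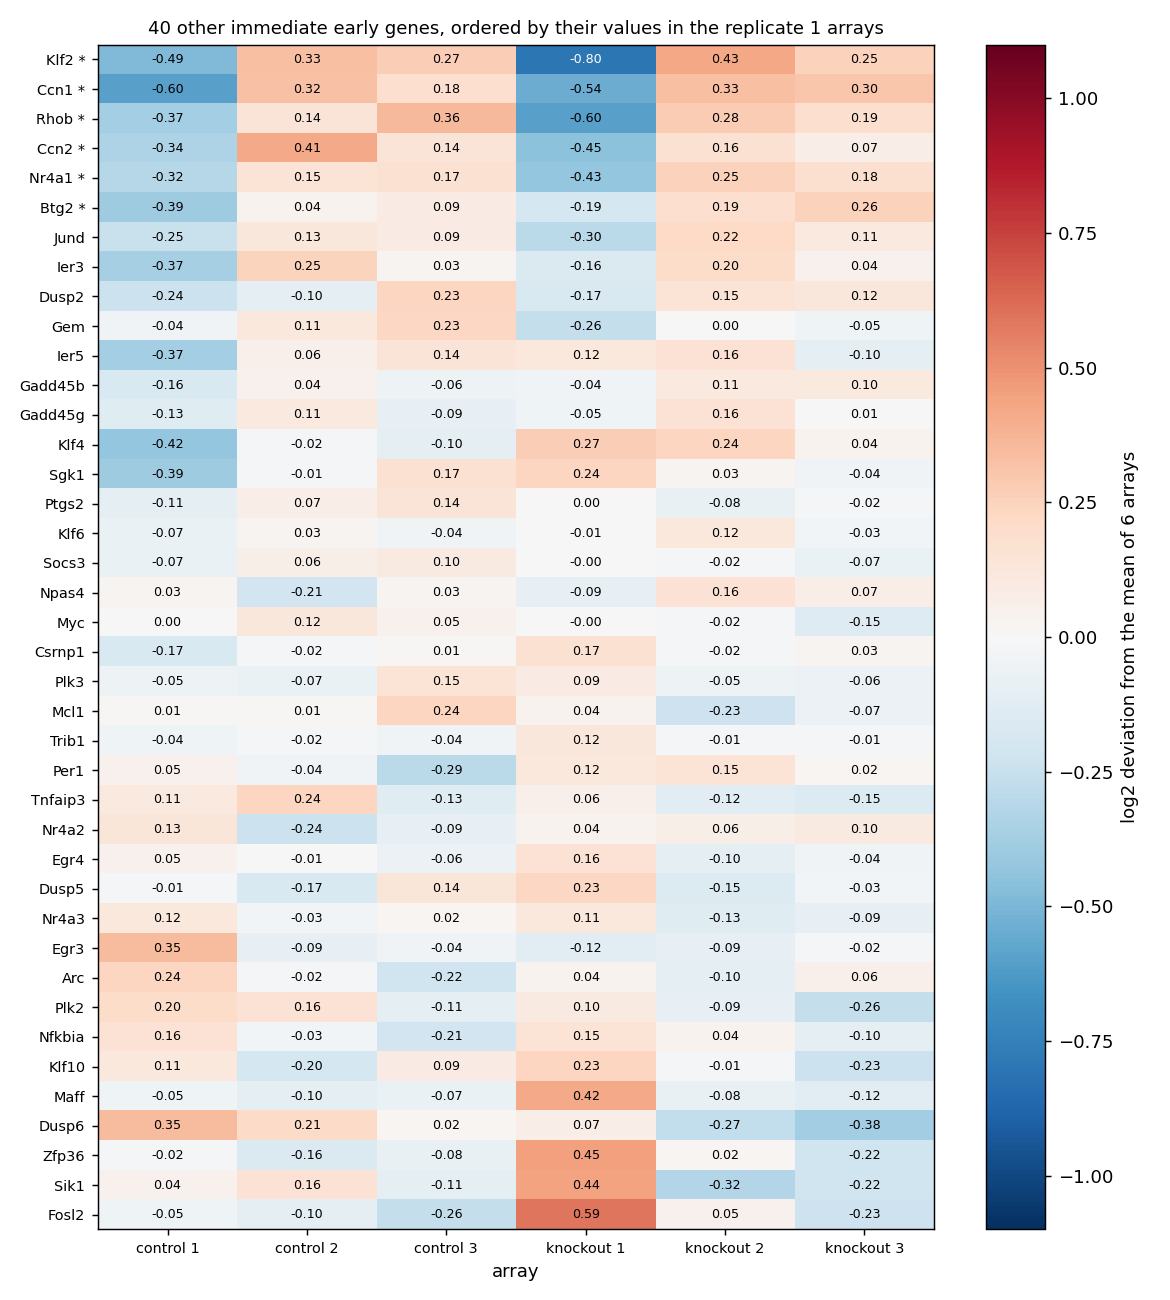
Deviation from the mean of 6 arrays (log2) for 40 other immediate early genes, ordered by the sum of their values in control 1 and knockout 1; asterisks mark the 6 genes that passed the F test on the replicate number. Genes at the top are low in both arrays numbered 1, and those at the bottom are high in knockout 1.

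Genes whose pattern over the 6 arrays was most like that of the immediate early genes were sought among 843 genes above the median level with a range of at least 1. With the mean of the 7 members above the median as the template, the likest were Krt17 (Pearson r = 0.692), Clec10a (0.596), Col7a1 (0.596), Ano9 (0.593), Kansl1l (0.564), Galnt6 (0.551), Ndufa4l2 (0.532), Tob2 (0.529), Prex1 (0.529) and Egfl6 (0.528). That template ran only from -0.050 to 0.036, since Jun and Fos moved in opposite directions, so it describes little. With single members as templates, chosen after the values were seen, Jun was matched most closely by the surface glycoprotein gene Thy1 (0.996), then Phf12 (0.994), Mapre2 (0.993), Cbfa2t3 (0.993) and Gm13889 (0.992). Thy1 read 9.46, 10.1 and 10.3 in controls and 9.24, 10.3 and 10.3 in knockouts. Fos was matched by Rassf6 (0.988), Mcoln3 (0.982), the desmosomal cadherin gene Dsg1b (0.979), Paqr5 (0.978) and the keratin gene Krt19 (0.977). For Atf3 the likest were Kcnk1 (0.944), Gmps (0.889), Thoc5 (0.887), Wnt2 (0.887) and Sema3c (0.884). All rest on 6 arrays that share the split by replicate number, and they are given as descriptions.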

How the data were processed

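Total RNA of 6 back skins (Trizol, RNeasy) was labelled with biotin and read on MOE430 2.0 arrays, per the labels' protocols. The deposited values are RMA summaries, per the submitters' processing notes, and were read as log2 because they run from 2.39 to 14.8 with array medians of 5.99 to 6.03; no source used here names the log base. RMA equalises the arrays' distributions, so a shift of most genes would not show, and the number of arrays limits the precision. Of 45101 rows, 64 control probe sets were left out of the tests. Names came from the platform annotation, updated by Entrez identifier to GRCm38.p6; among 45037 probe sets tested, 34945 carried 1 symbol, 932 several and 9160 none.

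Genotype differences came from limma 3.58.1 under R 4.3.3 (lmFit, eBayes, no covariates, two-sided, Benjamini-Hochberg over all probe sets), checked on simulated data. The labels call the samples of a group biological replicates 1 to 3. Whether each is a single embryo or a pool is not stated, so p-values measure the spread between these samples. Deviations from group means correlated between same-numbered arrays at r = 0.568, 0.359 and 0.124. Control 2 correlated more with knockout 3 (0.422), and control 3 with knockout 2 at 0.017. The deviations come from means of 3 arrays, so these correlations are not independent, and they do not settle pairs 2 and 3. The numbers were taken as pairs from these same data alone, and the intervals with the block rest on that choice. Genes named are the 10 members, Fzd6, the 3 genes of smallest p (brightest probe sets) in lists of stress and upstream genes, any of the other immediate early genes, and those of most similar pattern. The skin markers Krt14 and Col1a2, and others where said, were chosen after their values were seen. Members and lists were chosen with earlier results of these data known. Alternatives were a variance trend, a filter on dim probe sets, quantile normalisation, centring, array weights, the replicate block, a Y-linked covariate and each array left out. Listed genes with no match were not analysed here.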

Additional observations from a re-analysis of the deposited data

How the results depend on the processing

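No alternative brought an immediate early probe set past limma's adjusted p (0 under each), and with single arrays left out 6 to 8 of the 10 genes were higher in the knockout. Over all probe sets 3 passed with the replicate block, against 0 without it, and the block changed no call of an immediate early gene. None of the differences that turned sign had passed a test. For Jun 1417409_at the difference of -0.010 became 0.020 after a further quantile normalisation, 0.0047 with centred arrays, 0.086 with array weights and 0.082 without both arrays numbered 1, a setting chosen after seeing the data. For Jun 1448694_at it became 0.039 with array weights and 0.034 without both arrays numbered 1, where Junb stood at -0.0059. With single arrays left out, the differences ranged from -0.34 to 0.41 for Jun 1417409_at, from -0.27 to 0.23 for Jun 1448694_at, from -0.024 to 0.40 for Fos, from -0.15 to 0.11 for Fosl1 1417488_at, from -0.30 to 0.068 for Atf3, from -0.056 to 0.093 for Ier2, from -0.19 to 0.10 for Dusp1, from 0.033 to 0.28 for Egr2 1427682_a_at, from 0.047 to 0.20 for Fosb and from 0.035 to 0.19 for Junb. The Fos difference was -0.024 without knockout 1. The count of immediate early probe sets that varied with the replicate number, 4, was 1 with array weights and 0 with the Y-linked covariate. It was 0 to 4 with single arrays left out, and these fits and that with the covariate keep 1 residual degree of freedom. The share over all probe sets moved too, from 4.92% to 0.462% with array weights and 0.0844% with the covariate. With single arrays left out it ran from 0.0266% to 7.27%. The cause was not tested. Dim probe sets of Fosb, Fosl1 and Egr2 had no value under the filter on level.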
